A study of Mus musculus with 12 samples.

Results

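The shift described here is the one common to the treatments APAP and OAP2 in 4T1 cells, a mouse mammary carcinoma cell line. It is the mean of the APAP and OAP2 groups (6 libraries) against the mean of the PBS and Oxa groups (6 libraries), and it uses all 12 of the 12 libraries of the series. Poly(A) RNA was sequenced from 3 libraries in each of the groups PBS, APAP, Oxa and OAP2. All 12 come from the same line, labelled as adherent and with genotype WT, and the groups differ only in the treatment label, which reads APAP, Oxa, OAP2 and, for the libraries titled PBS, DMSO. The PBS values come from columns named CON, matched to the titles by inference because no other group lacks a drug. APAP is the usual short name of acetaminophen, an analgesic, but the labels do not spell it out, nor Oxa or OAP2. The labels give no dose or time, the design text mentions a xenograft where the labels describe cells, and nothing says whether the 3 libraries of a group were separate cultures. The p-values therefore measure only the spread between these libraries.

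4T1 cells are known for secreting chemokines that attract neutrophils and for an epithelial state that is easily shifted towards a mesenchymal one. Chemokine genes such as Cxcl1 and Cxcl5 are transcribed in response to NF-kB, a family of dimeric transcription factors that are held in the cytoplasm by inhibitor proteins until a signal releases them. A further set of genes, among them Ccn2 and Ankrd1, responds to YAP, a coactivator that moves to the nucleus when cells are spread or under tension and binds TEAD factors there. Caveolae are small pits of the plasma membrane built from caveolins and coated with cavins.

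Depth lay between 64071751 and 71500487 counts per library. Summed over the 8 epithelial markers, FPKM (fragments scaled to transcript length and to the mapped total) was at least 1150 in each of the 12 libraries. PBS 2 stood apart: its 7 red blood cell markers summed to FPKM 231.9 and its 10 neutrophil markers to 67.2, while the other 11 libraries summed to at most 0.37 and 0.55. The 10 macrophage markers summed to 50.3 in PBS 1 and to between 15.6 and 24.5 elsewhere, and the 3 T and NK cell markers in the table to at most 0.22. The 7 B and plasma cell markers summed to 4.63 in PBS 2 and at most 0.22 elsewhere. On the first principal component of log2 CPM (counts scaled to the library total), which held 26.8% of the variance, PBS 2 (29.23) lay among the Oxa libraries (23.61 to 33.84), PBS 1 and PBS 3 at -6.90 and -22.5, and the APAP and OAP2 libraries between -21.7 and -1.37. OAP2 3 stood apart from OAP2 1 and OAP2 2 on the second component (-23.8 against 3.85 and 3.35). Since PBS 2 lies on 1 side of the comparison, values without it are given beside the list counts and beside many of the genes. How far its red blood cell and white blood cell transcripts bear on the results was not tested.

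Of 12036 genes tested, 1148 were called (9.54%; edgeR quasi-likelihood test, 2-sided, Benjamini-Hochberg adjusted p below 0.05). In APAP and OAP2, 508 genes were higher (4.22% of those tested) and 640 lower (5.32%), the change exceeding 2-fold in 30 and 56 of them. An unadjusted p below 0.05 was reached by 2987. Without any 1 of the APAP or Oxa libraries the count fell to between 603 (without Oxa 2) and 740 (without Oxa 3), and without OAP2 2 to 751. Without PBS 2 it was 1642, with 748 higher and 894 lower, and 1122 of these were among the 1148. On the FPKM scale limma called 358 higher and 713 lower, a lower share of rises than in the counts.

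The pooled value is the average of 2 arms that share no library, the APAP arm (APAP minus PBS) and the OAP2 arm (OAP2 minus Oxa). Both arms had the same sign in 1093 of the 1148 called genes, a share that the call itself favours, and the OAP2 arm was the larger in 1028. How often the OAP2 arm was the larger over all genes was not counted, so the 1028 stand without a baseline. In the genes called higher the median log2 fold change was 0.23 for APAP minus PBS and 0.62 for OAP2 minus Oxa, and in those called lower -0.28 and -0.62. Over all 12036 genes, chosen by no value of either arm, the arms had the same sign in 58.4% and Pearson's r across genes was 0.39 (Spearman's rho 0.26), and without PBS 2 the share was 55.0% and r 0.32. Genes are not independent replicates, so these describe the libraries only. The 3 libraries of each arm did not overlap, in the same direction in both arms, in 204 genes higher (1.69% of those tested) and 477 lower (3.96%), and all 6 libraries of one side lay above the 6 of the other in 94 genes higher (0.781%) and 231 lower (1.92%).

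**Figure D1:**
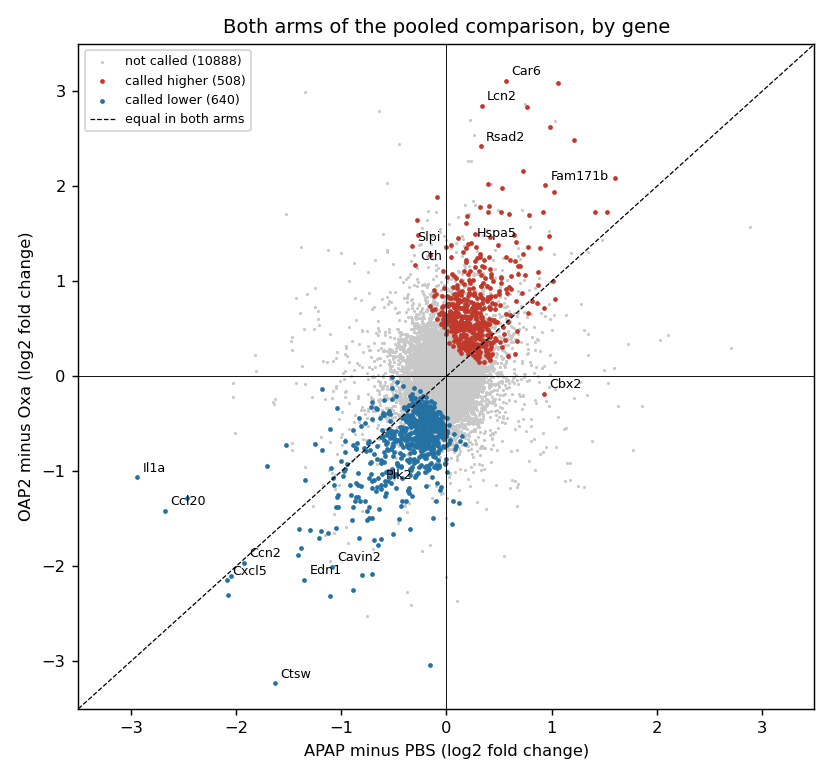
Each point is 1 of the 12036 genes tested, with the log2 fold change of APAP against PBS on the x axis and of OAP2 against Oxa on the y axis (9 genes lie outside the axes); colour marks genes called in the pooled comparison and the dashed line marks equal values. The 508 red and 640 blue genes lie mostly in the upper right and lower left, while Cxcl5 and Ccn2 lie close to the dashed line. Of the coloured genes, 1028 lie farther from 0 on the y axis than on the x axis, a count not made over all genes.

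To read APAP and PBS in genes not chosen by their own values, genes were chosen from the OAP2 and Oxa libraries alone. This reading was added after the data had been seen. A fit of those 6 libraries called 918 genes higher in OAP2 than in Oxa (7.63% of 12036) and 958 lower (7.96%). Of the 918, 70.0% were higher in APAP than in PBS, against 49.1% of all genes, with a median log2 fold change of 0.09. Of the 958, 78.3% were lower in APAP than in PBS, against 50.9% of all genes, with a median of -0.16. Without PBS 2 the shares were 61.9% and 70.5% and the medians 0.07 and -0.09. The APAP values thus lay on the OAP2 side of PBS for most of these genes, by a small amount. The library medians show where each stood: relative to the mean of the PBS and APAP libraries, the 918 genes had medians of -0.01, -0.13 and 0.00 in PBS 1 to 3, 0.06, 0.10 and 0.03 in APAP 1 to 3, and -0.38, -0.40 and -0.39 in Oxa 1 to 3. In OAP2 1 to 3 they were 0.22, 0.19 and 0.13. The genes were chosen for a difference between Oxa and OAP2, so the gap between those groups was set by the choice. Only the PBS and APAP medians are free of it.

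**Figure D2:**
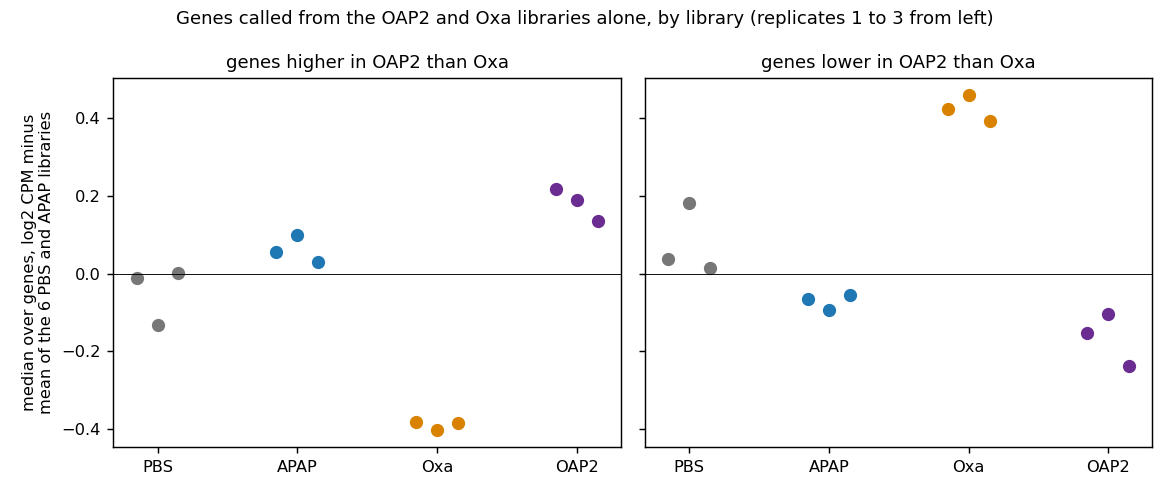
Each point is 1 library, and its height is the median over the genes of log2 CPM minus the mean of the 6 PBS and APAP libraries, for the 918 genes called higher (left) and the 958 called lower (right) in OAP2 than in Oxa. All 3 APAP libraries lie on the OAP2 side of all 3 PBS libraries in both panels, with PBS 2 nearest to Oxa. The Oxa libraries lie farther from PBS 1 and PBS 3 than the OAP2 libraries do, but the Oxa and OAP2 libraries chose these genes.

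Chemokines and other genes driven by NF-kB had called members in both directions. Among the 30 tested genes of this list 10 fell, 3 rose and 17 missed the threshold, with a median log2 fold change of -0.36 beside 0.00 over all genes tested; 9.54% of all genes were called. With 1 library left out, 10 to 16 members were called, and without PBS 2, 11 fell and 5 rose. The 10 that fell encode the neutrophil-attracting chemokines Cxcl5, Cxcl1 and Cxcl3, the chemokine Ccl20, the cytokines Il1a and Lif, the adhesion molecule Vcam1, and Tnfaip3, Nfkbia and Nfkbie, which restrain NF-kB. Cxcl3 had a mean FPKM of 1.12, near the FPKM of 1 required for testing. The 3 that rose were Lcn2, Ccl5 and Cxcl10, and for none of the 3 were the libraries free of overlap in both arms.

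Promoter sequences are shown for 3 of the 10 list members that fell. The 3 are the ones with a match described below among the members named by the rule, so they do not stand for all 10. Letters of the NF-kB motif were searched on both strands in 2 overlapping forms, GGGA then any 2 bases then TTCC, and GGG then any 2 bases then TTTCC, in RefSeq promoter windows (GRCm38.p6) from 250 bases before to 50 after the start. Of the 10 members that fell, 8 had a window and 5 of these (Ccl20, Cxcl1, Cxcl3, Nfkbia and Tnfaip3) held at least 1 form, as did 1 of the 2 windows of members that rose, 3 of 9 of members that did not pass, and 2.66% of 32544 windows of 300 bases. The 150 bases before the start of Ccl20, Cxcl1 and Tnfaip3 are printed 5′ to 3′ on the gene's strand, with the matching bases in capitals.
Ccl20, chr1:83116616-83116765, plus strand: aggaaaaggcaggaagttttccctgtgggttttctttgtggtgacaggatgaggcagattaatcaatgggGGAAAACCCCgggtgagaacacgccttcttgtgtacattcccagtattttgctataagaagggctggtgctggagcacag
Cxcl1, chr5:90891095-90891244, plus strand: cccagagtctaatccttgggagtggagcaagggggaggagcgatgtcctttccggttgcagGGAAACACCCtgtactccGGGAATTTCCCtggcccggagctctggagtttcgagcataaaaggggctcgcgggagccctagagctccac
Tnfaip3, chr10:19015411-19015560, minus strand: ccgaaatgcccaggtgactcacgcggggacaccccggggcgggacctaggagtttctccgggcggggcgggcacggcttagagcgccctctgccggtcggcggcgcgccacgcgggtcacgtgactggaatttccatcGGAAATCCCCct
The match begins 80 bases before the start in Ccl20 and 12 bases before it in Tnfaip3, and in Cxcl1 a match begins 89 bases before it and 3 overlapping ones begin 71, 71 and 70 bases before it. The windows of Il1a and Lif, which also fell, held neither form. A match is a run of letters, not a measured binding site. The list was drawn up as genes driven by NF-kB, which favours a share above that of all windows. The counts therefore tell nothing about why members fell, and members that rose or did not pass held the letters too.

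Cxcl5 (chromosome 5, 90759360 to 90761624, GRCm38) had FPKM of 13.0, 37.4 and 10.2 in PBS 1 to 3 and 14.2, 11.6 and 19.6 in Oxa 1 to 3, against 4.63, 5.22 and 4.00 in APAP and 3.98, 3.00 and 3.18 in OAP2. All 6 APAP and OAP2 libraries lay below all 6 others. It was 4.34-fold lower, a log2 fold change of -2.12 ± 0.27 (SE; 95% interval -2.71 to -1.53, adjusted p = 0.000772 by edgeR), with -2.09 in APAP minus PBS and -2.15 in OAP2 minus Oxa, and -1.72 without PBS 2. Cxcl1, a ligand of the same receptor, had FPKM of 7.90, 39.5 and 5.81 in PBS 1 to 3 and 8.02, 4.85 and 8.23 in Oxa 1 to 3, against 2.23, 3.77 and 3.38 in APAP and 3.67, 2.94 and 2.04 in OAP2. The sides did not overlap here either, but PBS 2 alone exceeded its own group several-fold, and the log2 fold change of -1.87 ± 0.40 (adjusted p = 0.0119) was -1.19 without PBS 2 (adjusted p = 0.00148). Vcam1, which binds leukocyte integrins, had FPKM of 4.61, 5.64 and 5.56 in PBS 1 to 3 and 7.05, 6.76 and 7.10 in Oxa 1 to 3, against 3.76, 4.03 and 3.30 in APAP and 3.52, 3.95 and 3.49 in OAP2. It was lower by a smaller but more even amount, -0.70 ± 0.08 (adjusted p = 0.000339), again with no overlap of the sides.

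Ccl20, which attracts CCR6-bearing cells, fell by 2.05 on the log2 scale (adjusted p = 0.0143), and without PBS 2, where its FPKM was 5.88 against 0.87 and 0.86 in PBS 1 and PBS 3, by 1.27 (adjusted p = 0.00472). Il1a, the interleukin released from damaged epithelium, stood at FPKM 178.4 in PBS 2 and between 7.61 and 24.8 in the other 11 libraries. Its log2 fold change of -2.00 (adjusted p = 0.0310) was -0.86 without PBS 2 (adjusted p = 0.00390), and the call ended without any 1 of the 9 APAP, Oxa or OAP2 libraries, with adjusted p up to 0.0798. Tnfaip3, which encodes the A20 inhibitor of NF-kB signalling, fell by 0.72 (adjusted p = 0.00377; -0.57 without PBS 2), with close arm values (-0.74 and -0.70). Lif, a cytokine of the interleukin-6 family, had a log2 fold change of -0.75 ± 0.13 (adjusted p = 0.00419).

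In the list of YAP and TEAD targets, among 21 tested genes 7 fell, 1 rose and 13 missed the threshold, with a median of -0.23. Over all genes 5.32% were called lower and 4.22% higher. Without PBS 2, 0 rose and 10 fell, and 5 to 10 were called with 1 library left out. Ccn2, a secreted matrix-associated growth regulator, had FPKM of 39.5, 166 and 41.7 in PBS 1 to 3 and 86.2, 76.3 and 68.3 in Oxa 1 to 3, against 18.0, 26.7 and 18.4 in APAP and 22.8, 19.6 and 16.6 in OAP2. It was 3.85-fold lower (-1.94 ± 0.31, adjusted p = 0.00217; -1.43 without PBS 2), with close arm values (-1.93 and -1.96) and no overlap of the sides. Edn1, which encodes the vasoconstrictor endothelin-1, had FPKM of 6.57, 14.8 and 8.34 in PBS 1 to 3 and 8.75, 8.52 and 8.08 in Oxa 1 to 3, against 3.78, 4.57 and 2.90 in APAP and 1.98, 1.46 and 2.27 in OAP2. The OAP2 libraries were lowest, APAP next, and no library of the other side was as low, with a log2 fold change of -1.75 ± 0.20 (adjusted p = 0.000406). Thbs1, an adhesive matrix glycoprotein, fell by 1.60 on that scale (-1.39 and -1.81 in the arms, adjusted p = 0.00217; -1.24 without PBS 2). The receptor kinase Axl (-0.48), the muscle ankyrin repeat gene Ankrd1 (-0.42), the Hippo kinase Lats2 (-0.27) and the angiomotin-like Amotl2 (-0.25) fell by less, and Gadd45a, a growth arrest gene, rose by 0.31. In APAP minus PBS and in OAP2 minus Oxa, Axl had -0.20 and -0.76, Lats2 -0.10 and -0.43, and Amotl2 -0.21 and -0.30. Ankrd1 had -0.60 and -0.25, and Gadd45a 0.18 and 0.44. None of these differences was called.

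All 11 tested genes of caveolae and related membrane domains had negative values (median -0.26), as had 6004 of all 12036 genes. Of the 11, 6 were called, beside 5.32% lower over all genes. Without PBS 2, 7 were called and Cavin3 was positive (0.13). With 1 library left out 4 to 7 were called, fewest without APAP 1, Oxa 2 or Oxa 3. Cavin2, a coat protein of caveolae (chromosome 1, 51289126 to 51302960), had FPKM of 3.32, 3.43 and 4.14 in PBS 1 to 3 and 4.33, 4.62 and 6.04 in Oxa 1 to 3, against 1.60, 1.55 and 1.83 in APAP and 1.25, 1.1 and 1.37 in OAP2. It was 2.92-fold lower, -1.55 ± 0.12 (95% interval -1.80 to -1.29, adjusted p = 3.02e-05), and leaving out PBS 2 gave -1.56. Cavin2 had -1.09 in APAP minus PBS and -2.00 in OAP2 minus Oxa. Cavin1 (-0.11 and -0.65), Cav1 (-0.03 and -0.74) and the flotillin gene Flot2 (0.00 and -0.72) had values mainly in OAP2 minus Oxa. The stomatin gene Stom had its value mainly in APAP minus PBS (-0.52, the other being near 0). Of the list, the difference of the arms was called for Flot2 alone (adjusted p = 0.0422). The caveolin Cav2 had similar values in both (-0.39 and -0.42).

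The smallest p of all genes belonged to Plk2, a polo-like kinase induced by stress (chromosome 13, 110395046 to 110400844). Its FPKM was 62.2, 68.6 and 69.5 in PBS 1 to 3 and 70.6, 72.0 and 74.7 in Oxa 1 to 3, against 38.7, 42.5 and 45.0 in APAP and 32.6, 31.7 and 33.7 in OAP2. OAP2 was lowest, APAP next, and the sides did not overlap. The log2 fold change was -0.88 ± 0.06 (95% interval -1.01 to -0.76, adjusted p = 1.15e-05), with -0.62 ± 0.08 in APAP minus PBS and -1.14 ± 0.08 in OAP2 minus Oxa. In the p53 target list, which holds Plk2, 2 of 21 fell and 1 rose, beside 5.32% lower and 4.22% higher over all genes, shares near those of the list. The others were the death receptor Fas (-0.97, adjusted p = 0.0206, up to 0.0596 with 1 of APAP 1, APAP 2, Oxa 1 or Oxa 3 left out) and the ribonucleotide reductase subunit Rrm2b (0.23, adjusted p = 0.0322, a call that ended without PBS 1, OAP2 2, Oxa 1, Oxa 2 or any 1 APAP library, with adjusted p up to 0.0820). Fas had a mean FPKM of 1.05 over the 12 libraries, near the FPKM of 1 required for testing.

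Immediate early genes, which are switched on within minutes of growth factor or stress signals, numbered 20 in the fit. Of these 6 fell, 0 rose and 14 did not pass (median -0.09), beside 5.32% lower and 4.22% higher over all genes. Without PBS 2, 7 fell and 3 rose, and 4 to 10 were called with 1 library left out. Fosl2, a subunit of the transcription factor AP-1, had FPKM of 20.6, 20.2 and 23.8 in PBS 1 to 3 and 20.1, 20.2 and 19.2 in Oxa 1 to 3, against 16.6, 15.2 and 17.1 in APAP and 10.1, 11 and 10.7 in OAP2. OAP2 was lowest and APAP lay between it and the others without overlap (-0.63 ± 0.06, adjusted p = 0.000186). Junb, another AP-1 subunit, fell by 0.78 (arms -0.77 and -0.78; adjusted p = 0.00926; -0.55 without PBS 2), and Myc, the growth-promoting transcription factor, by 0.44 (arms -0.20 and -0.68; adjusted p = 0.00107). Of 20 genes of the DUSP and Sprouty feedback list, which dampen MAP kinase signalling or report on it, 5 fell and 1 rose. Beside them stand the same 5.32% lower and 4.22% higher over all genes. The median was -0.13, and without PBS 2, 6 fell and 1 rose. With 1 library left out the list held 1 call (without APAP 1 or Oxa 1) to 7. Spry1, a Sprouty inhibitor, fell by 0.43 (adjusted p = 0.00756), and Dusp10, a phosphatase of stress-activated kinases, by 0.50 (adjusted p = 0.0177, up to 0.0523 without APAP 1, Oxa 1 or Oxa 2).

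**Figure D3:**
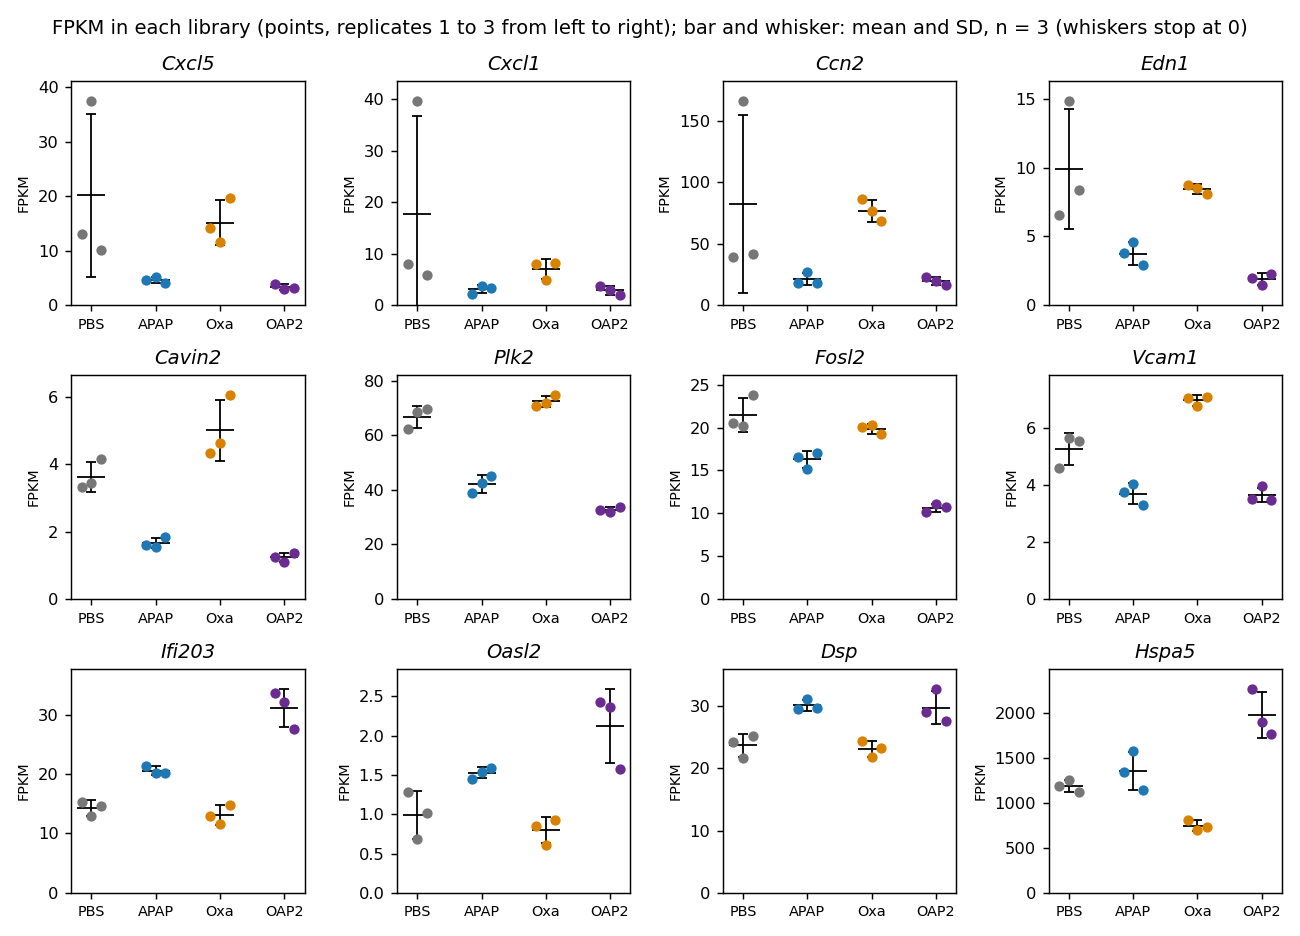
FPKM of 12 genes in each of the 12 libraries, grouped as PBS, APAP, Oxa and OAP2; points are libraries and the bar with whiskers is the mean and SD of 3. For the first 8 genes and for Ifi203, Oasl2 and Dsp the APAP and OAP2 points lie entirely on one side of the PBS and Oxa points, while the APAP and PBS points of Hspa5 overlap; PBS 2 is far above PBS 1 and PBS 3 for Cxcl5, Cxcl1 and Ccn2.

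Genes of desmosomes and of the cornified envelope, the protein shell of stratified epithelium, split: 6 of 17 fell, 2 rose and 9 did not pass. Over all genes 5.32% were called lower and 4.22% higher. The median was -0.16, and the counts were the same without PBS 2. Krt14, a basal keratin, had FPKM 19.9 in PBS 2, 3.37 and 2.12 in PBS 1 and PBS 3, 1.74 to 2.12 in APAP, 5.39 to 6.55 in Oxa and 1.20 to 1.5 in OAP2. Its log2 fold change of -2.08 ± 0.43 (adjusted p = 0.00964) was -1.27 without PBS 2. Tgm1, the transglutaminase that crosslinks the envelope, fell by 1.71 (adjusted p = 0.000733), with Oxa at 3.31 to 3.81 above all other libraries (0.30 to 1.42). The desmosomal cadherin Dsg3 fell by 0.63 (adjusted p = 0.000416), with -0.83 in APAP minus PBS and -0.43 in OAP2 minus Oxa (difference not called, adjusted p = 0.218), and the Oxa libraries (5.28 to 6.25) lay below PBS (11.7 to 13.8). Sfn, the epithelial 14-3-3 protein, fell by 0.90 (adjusted p = 0.00106). Dsp, the desmosomal plaque protein, went the other way, with FPKM of 24.2, 21.7 and 25.2 in PBS 1 to 3 and 24.4, 21.8 and 23.2 in Oxa 1 to 3, against 29.6, 31.2 and 29.7 in APAP and 29.1, 32.8 and 27.6 in OAP2. The sides did not overlap, and the arm values were close (0.39 and 0.37; pooled 0.38 ± 0.07, adjusted p = 0.00418). Cdsn, corneodesmosin, was the other gene that rose (1.1, adjusted p = 0.00635; 0.40 and 1.80).

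Of 15 genes of mesenchymal transition and invasion, 4 fell, 0 rose and 11 did not pass (median -0.25). For this list and the SRF list below, the shares over all genes were 5.32% lower and 4.22% higher. Without PBS 2, 5 fell, and 4 or 5 were called with 1 library left out. S100a4, a calcium-binding protein of motile cells, had FPKM of 17.7, 23.1 and 22.9 in PBS 1 to 3 and 27.7, 22.6 and 22.9 in Oxa 1 to 3, against 6.04, 11.1 and 11.2 in APAP and 8.02, 4.57 and 10.6 in OAP2. It was 2.62-fold lower with no overlap (-1.39 ± 0.20, adjusted p = 0.00137). Mmp9, a secreted gelatinase that neutrophils also make, fell by 1.51 (adjusted p = 0.00568). The log2 fold change was -1.08 without PBS 2, where its FPKM was 9.75 against 3.09 and 2.63 in PBS 1 and PBS 3. The part of the neutrophil transcripts of PBS 2 in this value was not tested. The matrix protein Sparc fell by 0.74 (adjusted p = 0.00980) and the intermediate filament gene Vim by 0.70 (adjusted p = 0.00170). Of 15 genes of the SRF and actin list, 3 fell, among them the tropomyosin Tpm1 (-0.52 ± 0.07, adjusted p = 0.00106), and Cald1, a caldesmon, rose (0.26, adjusted p = 0.0167, up to 0.0520 without APAP 1 or Oxa 2).

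Of 11 genes of plasminogen activation and serpins, 3 fell and 1 rose (median -0.23), beside 5.32% lower and 4.22% higher over all genes. The counts were the same without PBS 2, and 2 to 6 were called with 1 library left out, fewest without APAP 2. Plau, the urokinase activator, fell by 0.69 (adjusted p = 0.00391), with -1.04 in APAP minus PBS and -0.33 in OAP2 minus Oxa, and the protease inhibitor Serpinb9 by 1.07 (adjusted p = 0.00151).

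Prostaglandin synthesis starts with the release of arachidonic acid and its oxidation by cyclooxygenases, the enzymes that acetaminophen is known to affect. Of 9 genes of the pathway tested, 2 fell, 1 rose and 6 did not pass (median -0.06), beside 5.32% lower and 4.22% higher over all genes. The counts were the same without PBS 2, and 0 were called without APAP 1, APAP 3, Oxa 1 or OAP2 2. Ptgs2, the inducible cyclooxygenase, had FPKM of 136, 527 and 152 in PBS 1 to 3 and 164, 130.4 and 156 in Oxa 1 to 3, against 95.8, 103 and 76.2 in APAP and 109, 87.6 and 76.2 in OAP2. All 6 APAP and OAP2 libraries lay below the rest, and PBS 2 was far above. The log2 fold change of -1.12 ± 0.28 (adjusted p = 0.0231) was -0.66 without PBS 2 (adjusted p = 0.00120), and the call ended without APAP 1, APAP 3, Oxa 1 or OAP2 2 (adjusted p up to 0.0613). Pla2g4a, the phospholipase that releases the substrate, fell by 0.25 (adjusted p = 0.0430), a call that ended without any 1 library other than PBS 2 and OAP2 3 (adjusted p up to 0.139), and Abcc4, an exporter of prostaglandins and other anions, rose (0.59, adjusted p = 0.0374, a call that ended without OAP2 1, OAP2 2 or any 1 APAP or Oxa library, with adjusted p up to 0.0908). Of 9 tested genes for enzymes and transporters of acetaminophen metabolism, Nqo1, a quinone reductase, was the 1 called (0.61, adjusted p = 0.0270), and its arms differed in sign (-0.27 and 1.48). That call ended without replicate 1 or 2 of APAP, Oxa or OAP2 (adjusted p up to 0.0762).

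Of 33 cell cycle and DNA replication genes, 9 fell, 0 rose and 24 did not pass (median -0.15), beside 5.32% lower and 4.22% higher over all genes. Without PBS 2, 13 fell and 1 rose. The count varied with single libraries, from 3 without APAP 2, Oxa 1, Oxa 2 or OAP2 1 to 14. Ccnd1, the G1 cyclin, had FPKM of 80.2, 105 and 78.6 in PBS 1 to 3 and 89.0, 99.2 and 96.8 in Oxa 1 to 3, against 64.5, 68.8 and 64.3 in APAP and 53.2, 61.8 and 58.2 in OAP2. It was 1.46-fold lower without overlap of the sides (-0.55 ± 0.09, adjusted p = 0.00208). The replication licensing genes Cdc6 (-0.69, adjusted p = 0.00926) and Mcm5 (-0.55, adjusted p = 0.0158; -0.39 without PBS 2) fell, with -0.95 and -0.74 in OAP2 minus Oxa and -0.43 and -0.37 in APAP minus PBS, differences that were not called (adjusted p = 0.411 and 0.525).

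Of the interferon-induced genes, among 20 tested, 6 rose, 2 fell and 12 missed the threshold (median 0.16), beside 4.22% of all genes called higher and 5.32% called lower. The counts were the same without PBS 2, and 5 to 8 were called with 1 library left out. Ifi203, a nuclear protein of the p200 family (chromosome 1, 173920407 to 173942672), had FPKM of 15.3, 12.9 and 14.7 in PBS 1 to 3 and 12.9, 11.6 and 14.8 in Oxa 1 to 3, against 21.4, 20.1 and 20.1 in APAP and 33.6, 32.1 and 27.6 in OAP2. OAP2 was highest and APAP next, with no overlap of the sides (0.91 ± 0.08, 1.88-fold, 95% interval 0.74 to 1.07, adjusted p = 7.63e-05). Mndal, of the same family and with near-identical neighbours between which reads may be split, rose by 0.92 (adjusted p = 0.000267). Oasl2, an antiviral oligoadenylate synthetase-like protein, had FPKM of 1.28, 0.68 and 1.01 in PBS 1 to 3 and 0.85, 0.61 and 0.93 in Oxa 1 to 3, against 1.45, 1.54 and 1.59 in APAP and 2.43, 2.36 and 1.58 in OAP2. The levels were low but the sides did not overlap (1.04 ± 0.17, adjusted p = 0.00264). Ifih1, a sensor of double-stranded RNA, rose by 0.77 (adjusted p = 0.000733).

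Rsad2, the antiviral viperin, rose mainly in the OAP2 arm, with FPKM of 1.83, 1.11 and 1.38 in PBS 1 to 3 and 0.85, 0.57 and 0.72 in Oxa 1 to 3, against 1.71, 1.92 and 1.66 in APAP and 4.96, 3.89 and 2.56 in OAP2. The APAP and PBS libraries overlapped, and the values of the arms were 0.33 and 2.42 (pooled 1.37 ± 0.18, adjusted p = 0.000772; difference of the arms 2.1 ± 0.35, adjusted p = 0.0419). Isg15 and Oasl1 were called higher although APAP minus PBS was near 0 for Isg15 and -0.28 for Oasl1, so their pooled values of 0.68 and 0.69 (adjusted p = 0.0286 and 0.0387) came from OAP2 minus Oxa. Ifit2 (-0.77, adjusted p = 0.0136) and Ddx58, which encodes RIG-I (-0.38, adjusted p = 0.0240), were called lower, with negative values in both arms. The mean FPKM of Ifit2 was 1.09, near the FPKM of 1 required for testing.

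In the lists of endoplasmic reticulum stress and of glutathione and cystine, 4 of 28 and 5 of 16 genes were called. All of these were higher, beside 4.22% called higher over all genes. The medians of these lists were lower in APAP minus PBS (-0.02 and -0.10) than in OAP2 minus Oxa (0.25 and 0.22), and the difference of the arms was called for Hspa5 and for Cth. In the list of 28 ER stress and ATF4 response genes 4 rose, 0 fell and 24 did not pass (median 0.08; 10 rose without PBS 2, and 3 to 10 were called with 1 library left out). Hspa5, the main chaperone there, had FPKM of 1187, 1255 and 1122 in PBS 1 to 3 and 814, 699.8 and 729 in Oxa 1 to 3, against 1346, 1574 and 1148 in APAP and 2267, 1902 and 1771 in OAP2. The Oxa libraries were below and the OAP2 libraries above all PBS and APAP libraries, while PBS and APAP overlapped, and the arms were 0.23 and 1.41 (pooled 0.82 ± 0.09, adjusted p = 0.000406; difference 1.18 ± 0.18, adjusted p = 0.0419). Ppp1r15a, which restores translation after stress, rose by 0.39 (adjusted p = 0.00291) and the asparagine synthetase Asns by 0.32 (adjusted p = 0.0113). Both had the larger value in OAP2 minus Oxa (0.63 and 0.55) and less in APAP minus PBS (0.15 and 0.08), differences that were not called. Of 16 glutathione and cystine genes, 5 rose and 0 fell (median 0.05). Without PBS 2, 6 rose, and 3 to 6 were called with 1 library left out. Among the 5 were Slc3a2, the shared subunit of the cystine transporter (0.47 ± 0.08, adjusted p = 0.00291), and Gss, glutathione synthetase (0.44, adjusted p = 0.0136). Their values were 0.18 and 0.17 in APAP minus PBS and 0.76 and 0.71 in OAP2 minus Oxa, differences that were not called. Of 22 NRF2 targets, 5 rose and 0 fell (median 0.11; 6 without PBS 2), with 1 called without Oxa 1 and 8 at most. Sqstm1, a cargo receptor of autophagy, had close arm values (0.32 and 0.25; pooled 0.29, adjusted p = 0.0168, 0.0559 without Oxa 1).

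**Figure D4:**
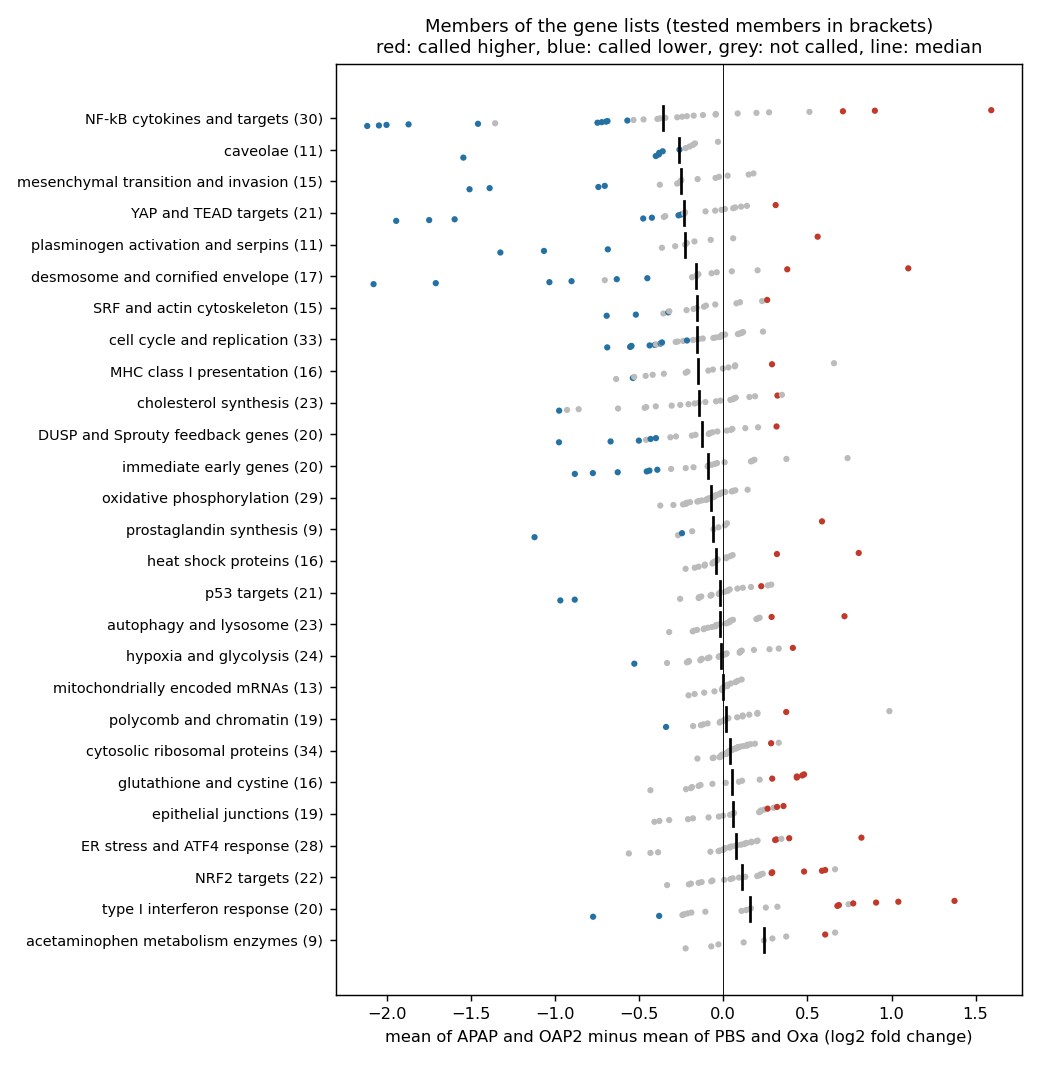
Every tested member of the 27 pathway lists by its pooled log2 fold change (x axis), 1 row per list, ordered by the median (black line); red and blue points were called higher and lower. The NF-kB list has the lowest median (-0.36) with 10 blue and 3 red points, all 11 caveolae points lie below 0, and most rows are centred near 0.

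The other lists held few calls, to be read beside 4.22% called higher and 5.32% called lower over all genes. Of 34 cytosolic ribosomal proteins 1 rose, of 29 oxidative phosphorylation genes and 13 mitochondrially encoded mRNAs 0 were called in either direction, with 0 to 4 and 0 called when 1 library was left out, and of 23 cholesterol synthesis genes 1 rose and 1 fell. The ribosomal protein list shows what pooling averages out: its median was -0.17 in APAP minus PBS and 0.28 in OAP2 minus Oxa, for a pooled 0.04. Lists of hypoxia and glycolysis, MHC class I presentation and polycomb genes each had 1 called higher and 1 lower, heat shock proteins and autophagy each had 2 higher, and epithelial junctions 3 higher (the splicing regulator Esrp1, the adhesion molecule Epcam and the transcription factor Grhl2). With 1 library left out, the autophagy, heat shock, polycomb and junction lists each fell to 0 called in at least 1 fit, junctions without APAP 1 or OAP2 2 and autophagy without Oxa 1.

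Other genes were chosen by the size of their change. Ctsw, a cysteine cathepsin, had the largest fall, with FPKM of 2.01, 5.35 and 2.05 in PBS 1 to 3 and 9.84, 7.47 and 8.37 in Oxa 1 to 3, against 0.70, 1.25 and 0.98 in APAP and 1.05, 0.67 and 0.99 in OAP2. It was 5.38-fold lower (-2.43 ± 0.26, adjusted p = 0.000338), with the highest levels in Oxa and no overlap of the sides. Ltbp2, a latent TGF-beta binding protein of the matrix, fell by 1.57 (adjusted p = 0.000693). Il18rap, an interleukin-18 receptor subunit, fell by 1.65 (adjusted p = 0.00972; -1.1 without PBS 2).

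Among the largest rises, Car6, a secreted carbonic anhydrase, had FPKM of 2.35, 0.79 and 3.90 in PBS 1 to 3 and 0.43, 0.71 and 0.30 in Oxa 1 to 3, against 3.68, 3.38 and 2.99 in APAP and 4.38, 3.21 and 4.91 in OAP2. Oxa was lowest and APAP overlapped PBS, so the rise of 1.84 ± 0.32 (adjusted p = 0.00401) had 3.12 in OAP2 minus Oxa and 0.56 in APAP minus PBS (difference not called, adjusted p = 0.0891). Lcn2, the siderophore-binding lipocalin of the NF-kB list, was high only in OAP2, with FPKM of 2.45, 4.12 and 1.00 in PBS 1 to 3 and 2.27, 1.71 and 3.28 in Oxa 1 to 3, against 3.19, 2.43 and 3.76 in APAP and 22.3, 19.2 and 10.7 in OAP2. Its pooled value of 1.59 (adjusted p = 0.00530) thus describes 1 of the pooled groups, and the arms were 0.34 and 2.85 (difference of the arms, adjusted p = 0.0723). Fam171b, a membrane protein, had FPKM of 5.61, 1.86 and 6.55 in PBS 1 to 3 and 2.18, 2.01 and 2.57 in Oxa 1 to 3, against 8.95, 8.98 and 8.13 in APAP and 9.26, 8.87 and 9.07 in OAP2. Here APAP and OAP2 stood at the same level, PBS 2 lay with Oxa, and the sides did not overlap (1.48 ± 0.22, adjusted p = 0.00149; 1.29 without PBS 2).

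Paqr3 rose by 1.45 (adjusted p = 0.000186) and Hhipl1 by 1.13 (adjusted p = 0.000664), with no overlap of the sides for either. The arms were 0.73 and 2.17 for Paqr3, a difference that was called, and 0.52 and 1.73 for Hhipl1, a difference that was not. Col11a2, a fibrillar collagen, rose by 1.12 (adjusted p = 0.0172, 0.0501 without Oxa 2), the G protein subunit Gng3 by 1.06 (adjusted p = 0.0133), the hexosamine enzyme Gnpnat1 by 1.05 (adjusted p = 0.00181) and the folate enzyme Aldh1l2 by 0.94 (adjusted p = 0.00329). In Gnpnat1 and Aldh1l2 the Oxa libraries were lowest and APAP overlapped PBS.

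Whether the arms differ was tested gene by gene. The difference was called in 66 of 12036 genes (0.548%), in 39 with OAP2 minus Oxa the higher and in 27 the lower, and 1798 reached an unadjusted p below 0.05. The count rests on single libraries: it was 0 without any 1 of the APAP or Oxa libraries, OAP2 1 or OAP2 2, 4 without PBS 1, 35 without PBS 3, and 606 without PBS 2. Of the 1148 genes called in the pooled comparison 53 were among the 66, and for the other 1095 a difference was not detected, which does not show that the arms are equal. In 34 of the 66 the arms had opposite signs, which choosing genes by the difference favours. Over all 12036 genes the arms had the same sign in 58.4%. Slpi, a secreted protease inhibitor, had FPKM of 27.5, 44.0 and 26.4 in PBS 1 to 3 and 23.6, 20.7 and 22.6 in Oxa 1 to 3, against 26.8, 24.1 and 24.8 in APAP and 60.0, 58.0 and 54.1 in OAP2. OAP2 lay above all other libraries, and APAP overlapped PBS. The arms were -0.33 ± 0.16 and 1.37 ± 0.16, a difference of 1.70 ± 0.23 (adjusted p = 0.0419). Cth, which makes cysteine, had FPKM of 26.1, 35.0 and 27.3 in PBS 1 to 3 and 8.89, 8.61 and 10.1 in Oxa 1 to 3, against 22.9, 25.1 and 21.9 in APAP and 18.3, 17.4 and 26.3 in OAP2. Its pooled rise of 0.44 (adjusted p = 0.0249, lost without PBS 1, APAP 1, APAP 2, Oxa 1 or Oxa 2, with adjusted p up to 0.0709) set a low Oxa level against OAP2, while APAP lay below PBS (-0.30 and 1.17).

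The comparison most like this one pools Oxa and OAP2 against PBS and APAP, with the same 12 libraries and 4 means. It called 1350 genes (11.2%), 733 higher and 617 lower. Of the 1148 genes called here, 258 (22.5%) were called there too, beside 11.2% of all genes. The 2 contrasts share all libraries, so their values are only set side by side. For Cavin2 the log2 fold changes were -1.55 ± 0.12 here and 0.01 ± 0.12 there (adjusted p = 0.972), for Plk2 -0.88 and -0.13 (adjusted p = 0.156), for Ccn2 -1.94 and -0.11 (adjusted p = 0.851), and for S100a4 -1.39 and -0.05 (adjusted p = 0.890). Dsg3 was lower in both (-0.63 and -0.91, adjusted p = 4.61e-05), as was Tnfaip3 (-0.72 and -0.69, adjusted p = 0.00551). Tgm1 had opposite signs, -1.71 here and 1.16 there (adjusted p = 0.00635).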

How the data were processed

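The deposited table lists 29937 genes, with FPKM and a count per library in all 12 libraries. The FPKM values are the authors', scaled to length and mapped total, per the file headers. The second set of values, named counts per the file headers, was taken as the authors' estimated counts, unscaled, and rounded here. The submitters' processing notes name HISAT2 2.2.1, StringTie 2.1.6, cutadapt 1.9, edgeR and DESeq2 with no roles. Their build is mm9, but of 29864 genes with a GENCODE M21 identifier 87.9% sit at its (GRCm38) position, so GRCm38 is given. Strand and multi-mapping rules of the counting are not stated, so overlapping genes and near-identical family members are less certain.

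The 12036 genes that reached FPKM 1 in 3 or more libraries were fitted on the counts in edgeR 4.0.16 (R 4.3.3; TMM scaling, glmQLFit, glmQLFTest), with 4 group means over 12 libraries. SE is the absolute log2 fold change over the root of F. The spread between libraries of a group beyond counting noise was 18.1% (common BCV in edgeR, PBS 2 included). Whether it is biological is not known, since the labels do not say if libraries were separate cultures. The fit was tested on simulated data. Alternatives used limma 3.58.1, DESeq2 1.42.0, other scalings, filters and models, and each library left out. The naming rule took, from called genes whose arms had 1 sign and whose mean FPKM was at least 2 on the higher side, the 12 largest rises and 12 largest falls without predicted genes or pseudogenes. It added up to 4 members of each list by test statistic (2 where none was called) and up to 5 genes by the p of the difference of the arms. Genes beyond it (Plk2 as the smallest p, further called members of lists, those of the closing section) were chosen after their values were seen. The comparison and the lists were chosen with earlier results of these data known. Sequences are from RefSeq, GRCm38.p6. A gene that met the rule is not reported here.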

Additional observations from a re-analysis of the deposited data

Results flagged for a closer look

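The difference between OAP2 minus Oxa and APAP minus PBS was called in 66 genes. The 13 given here are those among the named genes for which the test of that difference passed. It was positive, the OAP2 arm being the higher, for Rsad2 (2.1), Nqo1 (1.76), Slpi (1.70), Cth (1.47), Paqr3 (1.43), the secreted serpin Serpinf1 (1.43), Hspa5 (1.18), the oxidoreductase Ero1l of the endoplasmic reticulum (0.88) and the single-stranded DNA binding protein Fubp1 (0.76), all on the log2 scale. It was negative for the polycomb gene Cbx2 (-1.11), the phosphatase Ppm1f (-0.89), the hexokinase Hk1 (-0.88) and Flot2 (-0.72). The adjusted p lay between 0.0419 and 0.0422 for each, and every one of these calls ended in the fits that found 0 genes. In Cbx2, FPKM was 2.79, 1.86 and 2.25 in PBS 1 to 3 and 6.83, 7.13 and 7.23 in Oxa 1 to 3, against 4.51, 4.12 and 4.20 in APAP and 6.46, 6.74 and 5.41 in OAP2: PBS was lowest, APAP next, and Oxa and OAP2 higher still.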

How the results depend on the processing

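The 1148 genes of the pooled comparison became 688 with no filter on low values, 1789 by DESeq2, 2882 by limma voom with array quality weights, 713 in an additive model, 325 with no term for Oxa, and 2698 without PBS 2 and OAP2 3 together; with 1 library left out it was 603 to 1642. The split was 508 higher and 640 lower in the counts with TMM, 622 and 567 with upper quartile scaling, and 358 and 713 by limma on log2(FPKM + 1). The 66 genes whose arms differed became 0 with no filter (2645 at an unadjusted p below 0.05 by edgeR), 505 by DESeq2, 25 and 2 by limma on log2(FPKM + 1) and log2(FPKM + 0.1), 1317 by limma voom with weights, and 1248 without PBS 2 and OAP2 3; with 1 library left out it was 0 to 606, the fits at 0 having 1302 to 1987 genes at an unadjusted p below 0.05. With the replicate number as a block, 1021 genes were called in the pooled comparison and 0 for the difference of the arms (1760 at an unadjusted p below 0.05). The numbers share no pairing in the labels: for 18 pairs of libraries with 1 number, deviations from their group means correlated at -0.152 to 0.155, and 2 of 12 libraries correlated best with their own number. Of 2987 values of 125 named genes under the alternatives, 308 lost and 66 gained a call, and none changed sign among called genes; 69 of the 100 called kept their call in each fit without 1 library. List medians moved by less than the library spread in all 648 alternatives, while 227 of 648 list counts moved by over 1.5 times. Genes near the FPKM minimum (the lowest tested had a mean count of 3.17) are measured least precisely.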

Other observations

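The genes given here are among those with the smallest p and were chosen after their values were seen. Vegfc, a lymphatic growth factor, had FPKM of 5.16, 6.04 and 6.50 in PBS 1 to 3 and 8.2, 9.63 and 9.05 in Oxa 1 to 3, against 3.49, 3.25 and 3.56 in APAP and 2.92, 2.90 and 3.68 in OAP2. All 6 APAP and OAP2 libraries were below all others (-1.12 ± 0.10, adjusted p = 8.33e-05 by edgeR; -0.74 and -1.5 in the arms, -1.11 without PBS 2). Pdgfb, a platelet-derived growth factor chain, had FPKM of 7.68, 7.48 and 9.61 in PBS 1 to 3 and 9.08, 9.63 and 8.60 in Oxa 1 to 3, against 4.77, 5.26 and 5.99 in APAP and 3.89, 3.74 and 3.78 in OAP2. The sides again did not overlap (-0.92 ± 0.08, adjusted p = 8.33e-05; -0.59 and -1.26).

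In the other direction, Atf5, a stress-responsive transcription factor, had FPKM of 91.5, 63.7 and 83.8 in PBS 1 to 3 and 63.1, 73.2 and 68.2 in Oxa 1 to 3, against 130.4, 106 and 118 in APAP and 151, 157 and 168 in OAP2. APAP lay above PBS and OAP2 highest, with no overlap of the sides (0.91 ± 0.09, adjusted p = 0.000267). Fubp1 stood lowest in Oxa, with FPKM of 17.9, 18.0 and 18.6 in PBS 1 to 3 and 10.9, 9.71 and 11.7 in Oxa 1 to 3, against 21.6, 20.4 and 21.1 in APAP and 23, 21.4 and 20.3 in OAP2. Its pooled value was 0.63 ± 0.06 (adjusted p = 0.000117), with 0.26 in APAP minus PBS and 1.01 in OAP2 minus Oxa.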
